A study of Mus musculus with 4 samples.

Results

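Gpaa1 and 9 other genes of the glycosylphosphatidylinositol (GPI) anchor pathway were examined in cultured mouse neural stem cells, either wild type or knockout (KO) for Olig1. The members were all probe sets that the platform annotation gives to 1 of the 10 genes only, which were 24 of the 22690 probe sets on the array. Gpaa1 was chosen because 1 of its probe sets was at least 1 log2 unit lower in the wild-type array than in every KO array, so its own difference is a description and carries no test. The other genes were chosen by their role, with earlier results of these data known.

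Each sample was hybridised to 1 Affymetrix expression array. Per the labels, all cells were of C57/Bl6 background, grew without serum but with EGF, and had been isolated at embryonic day 14.5 from the ganglionic eminences, where forebrain interneurons and early oligodendrocyte precursors arise. The wild-type group held 1 array and the Olig1 KO group held 3 arrays, 1 without a number in its title and those numbered 37 and 38. They are called WT for the wild-type array and KO1, KO2 (number 37) and KO3 (number 38) below. Neither the KO allele nor the embryo or culture behind each KO sample is named in the labels, so p-values cover the spread of these arrays alone. That spread may be partly technical, and wholly so between KO2 and KO3. Between KO1 and these arrays it includes the split in Xist and Eif2s3y given below.

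A GPI anchor is a glycolipid that holds proteins on the outer face of the plasma membrane. It is built stepwise on phosphatidylinositol in the endoplasmic reticulum, beginning with the transfer of N-acetylglucosamine and continuing with mannose and ethanolamine phosphate. The GPI transamidase, a complex of Gpaa1, Pigk, Pigs, Pigt and Pigu, then cleaves a signal at the carboxyl end of the protein and joins the finished anchor to it. In the nervous system, prion protein, Thy1, contactins, glypicans and ephrin-A ligands are carried by such anchors.

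The values are MAS5 signals on a linear scale, and differences are log2 values after a pseudocount of 14.4 was added. A signal was called at background where it did not exceed the highest of 27 bacterial control probe sets with no target, which was 30.5 in WT and 21.3, 39.99 and 87.8 in KO1, KO2 and KO3. Olig1 did not separate the labels, at 7618 in WT and 3840, 4438 and 8548 in KO1, KO2 and KO3, so the arrays are called by their labels. Which part of Olig1 the allele lacks is not stated here. Of 7 measured neural stem cell markers, 7 were above background in WT and in KO1 and KO2, and 6 in KO3. Of 5 microglial, 4 endothelial, 2 erythroid and 4 mesenchymal markers, at most 3, 2, 1 and 3 were above background in any array. The arrays split into pairs without regard to genotype, WT with KO1 and KO2 with KO3. The Xist signal with probe set 1436936_s_at was 9480 for WT and 8472 for KO1, against 160.9 and 46.5 for KO2 and KO3. That of Eif2s3y was 0.61 and 1.53, both at background, against 654 and 1160. For the 18S ribosomal RNA controls the median was 4.64 and 7.24 against 946 and 2823. A comparison without KO1 sets WT against KO2 and KO3 only, so there genotype and this split cannot be told apart.

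The 3 probe sets of Gpaa1, a non-catalytic subunit of the transamidase, gave different pictures of the same 4 arrays. With probe set 1438152_at the signal was 177 in WT, and 656, 1008 and 774 in KO1, KO2 and KO3. WT was the lowest of the 4 and lay apart from all KO arrays, which averaged 813 ± 179 (SD, n = 3), or 4.60 times the wild-type signal. The single KO arrays were 3.71, 5.71 and 4.38 times WT. The log2 difference was 2.09, against a range of 0.61 among the KO arrays.

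Probe set 1448225_at showed no such separation of the arrays. It read 329.6 in WT and 415, 349 and 244 in KO1, KO2 and KO3, or 336 ± 86.4 (SD, n = 3). WT lay inside the range of the KO arrays, and the log2 difference was -0.0048. This difference changed sign with median scaling (0.016), quantile normalization (0.051) and without KO3 (0.20).

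The third Gpaa1 probe set, 1455954_x_at, was dim. The x in its name marks a probe set whose probes can also match other transcripts. It gave 23.2 in WT, which is at background, and 78.3 and 89.6 in KO1 and KO2. The 45.7 in KO3 was at background there. The measured values of KO1 and KO2 lay above that of WT, which is the direction of 1438152_at. With a measured signal in 2 of the 4 arrays only, no fold is given.

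**Figure D1:**
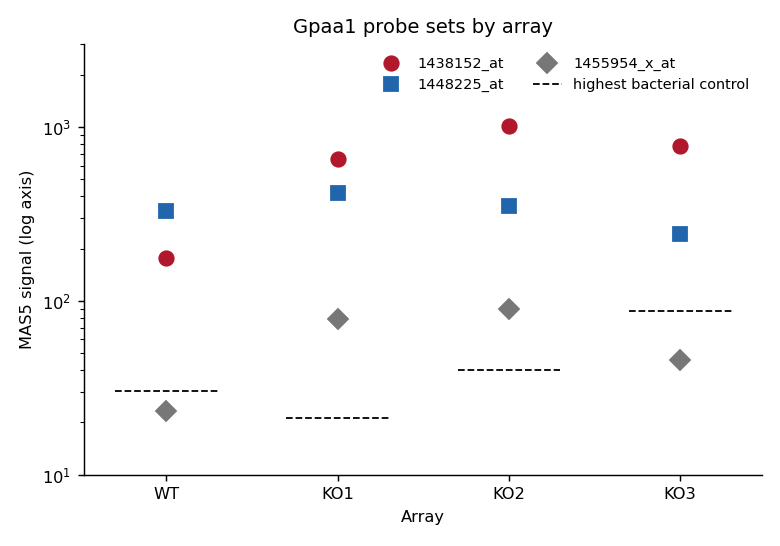
MAS5 signal (log axis) of the 3 Gpaa1 probe sets in each array, with the highest bacterial control probe set of that array as a dashed line. Probe set 1438152_at is at 177 in WT and at 656 to 1008 in the KO arrays, 1448225_at stays between 244 and 415, and 1455954_x_at is below the dashed line in WT and in KO3.

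Between the 2 Gpaa1 probe sets that were above background in all 4 arrays, the log2 differences of KO from wild type were 2.10 apart. The gap was 1.49, 2.34 and 2.46 in KO1, KO2 and KO3 taken singly (SD 0.53, n = 3). Gpaa1 was chosen for the difference that makes up nearly all of this gap, so its width is a description. The sources used here give neither the positions of the probe sets along the Gpaa1 transcripts nor a transcript form for each.

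Over all arrays, the wild-type signal was at least 1 log2 unit below every KO array for 26 of the 13575 probe sets kept after the dimmest 40% were left out (0.192%). Probe set 1438152_at is 1 of these by choice. In limma, 0 probe sets (0%) were called between KO and wild type at an adjusted p under 0.05, while 324 (2.39%) had an unadjusted p under 0.05. The latter count was 1146 without KO1 and 102 without KO2. Without KO1, 5 probe sets were called, those of Xist, Eif2s3y and Tmem87a and 2 without a gene symbol here, and thus none of a GPI anchor gene. A single wild-type array against 3 KO arrays cannot give an exact permutation p below 0.25.

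The 9 other genes had 21 probe sets, of which 15 were kept, at least 1 for each gene. None of the 15 was called by limma, each with an adjusted p of 0.999, and 0 had an unadjusted p under 0.05. Their log2 differences ranged from -0.86 to 0.40 with a median of -0.042, beside a median of -0.011 over all probe sets kept. WT was below every KO array for 2 of the 15 (22.6% of all probe sets kept) and above every KO array for 2 (23.3% of all). These shares were thus not above the background for the GPI genes.

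**Figure D2:**
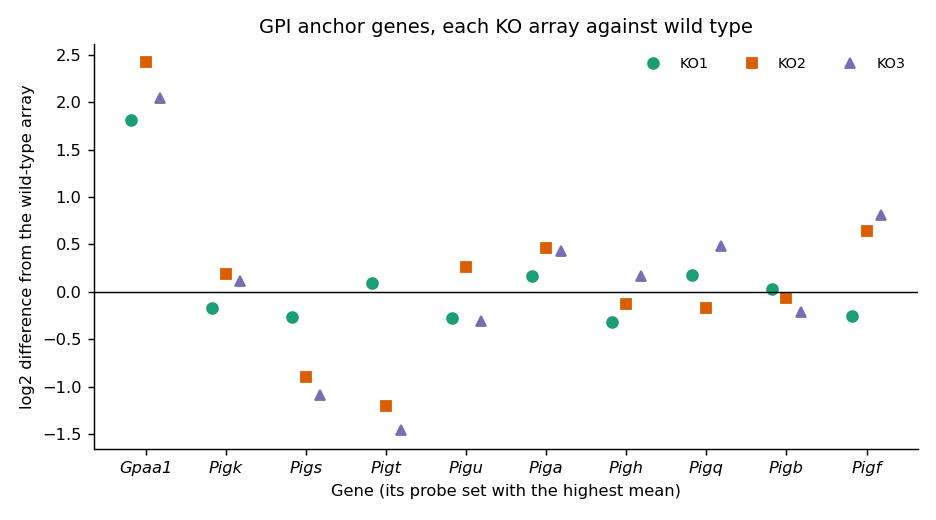
Log2 difference of each KO array from WT for each gene, by its brightest probe set. The KO arrays of Gpaa1 lie between 1.81 and 2.42, Pigs and Pigt reach -1.09 and -1.46 in KO3, and the other genes lie between -0.32 and 0.81.

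Pigk, the catalytic subunit of the transamidase, cleaves the signal of the precursor protein. With probe set 1428488_at it gave 386.5 in WT and 343, 441 and 419 in KO1, KO2 and KO3. WT lay within the KO range, and the log2 difference was 0.044 (SE 0.34, limma adjusted p = 0.999). The dimmer probe set 1435352_at, left out by the filter, gave 49.5 and 46.1 in WT and KO1 and 118 and 115 in KO2 and KO3. It thus followed the pairs of arrays rather than the genotype labels. The remaining probe set, 1452801_at, was at background in KO2 and KO3.

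Pigs and Pigt, which belong to the luminal part of the complex with Gpaa1, had 1 probe set each, and both were lower in KO2 and KO3. Pigs gave 647 in WT and 535, 341 and 295 in KO1, KO2 and KO3. WT was above all KO arrays, and the log2 difference was -0.75 (SE 0.42, limma adjusted p = 0.999). Pigt gave 294 in WT and 314, 120.0 and 97.7 in KO1, KO2 and KO3. Its WT value lay within the KO range, below KO1 and above the others, and the log2 difference was -0.86 (SE 0.61, limma adjusted p = 0.999). For Pigt it was -1.33 without KO1 and -0.55 without KO3. Within their pair, KO1 differed from wild type by -0.27 for Pigs and by 0.090 for Pigt.

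The mean of KO2 and KO3 was below the mean of the other pair by 0.86 log2 units for Pigs and by 1.38 for Pigt. With quantile normalization these values were -0.75 and -1.38. A drop at least this large was seen in 5.57% of all probe sets kept for Pigs and in 1.13% for Pigt. Other measures also differed between the pairs, though not all evenly. Beta-actin's ratio of 3' to 5' signal was 1.11 for WT and 1.25 for KO1, against 1.30 and 1.82 for KO2 and KO3. In this ratio KO1 and KO2, of unlike pairs, were close, and KO3 stood apart. The summed signal of 7 neural stem cell markers was 42439 and 40272 against 54871 and 58424. That of 6 neuronal markers was 2077 and 1624 against 1024 and 982, and that of 5 astrocyte markers 5089 and 5197 against 3776 and 3306. Above background in WT, KO1, KO2 and KO3 were 7, 7, 7 and 6 of the neural stem cell markers, 6, 4, 5 and 3 of the neuronal markers and 5, 5, 5 and 4 of the astrocyte markers. No marker of these 3 lists was at background in all 4 arrays. The summed signal of 4 oligodendrocyte markers was 2137 and 2005 for WT and KO1 against 2378 and 3648 for KO2 and KO3. Here too KO3 stood apart. Of these markers 2, 3, 3 and 3 were above background in WT, KO1, KO2 and KO3, and Mog was at background in all 4 arrays. The part of all these measures in the Pigs and Pigt values was not tested. In these bulk cultures fewer cells of a type and less RNA per cell cannot be told apart.

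The promoter windows of Pigs and Pigt are shown because these genes were lower together, and that of Pigu because its brightest probe set was not. Each window holds 250 bases before and 50 after a RefSeq start site in GRCm38.p6, written 5' to 3' on the gene's strand. Capitals mark the CCAAT box (CCAAT, or ATTGG on the other strand) and the core letters bound by ETS factors (CCGGAAG, or CTTCCGG on the other strand). No marked matches overlap. Both motifs were chosen after the sequences were seen. The windows are chr11:78328172-78328471 on the + strand for Pigs, chr2:164497275-164497574 on the + strand for the first of 2 listed starts of Pigt, and chr2:155357375-155357674 on the - strand for Pigu.
Pigs: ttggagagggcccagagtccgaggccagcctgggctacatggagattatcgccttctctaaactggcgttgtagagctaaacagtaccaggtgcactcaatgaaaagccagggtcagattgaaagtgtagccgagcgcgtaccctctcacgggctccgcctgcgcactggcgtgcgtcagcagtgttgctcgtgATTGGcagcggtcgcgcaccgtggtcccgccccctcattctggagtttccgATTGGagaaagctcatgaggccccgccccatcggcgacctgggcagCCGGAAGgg
Pigt: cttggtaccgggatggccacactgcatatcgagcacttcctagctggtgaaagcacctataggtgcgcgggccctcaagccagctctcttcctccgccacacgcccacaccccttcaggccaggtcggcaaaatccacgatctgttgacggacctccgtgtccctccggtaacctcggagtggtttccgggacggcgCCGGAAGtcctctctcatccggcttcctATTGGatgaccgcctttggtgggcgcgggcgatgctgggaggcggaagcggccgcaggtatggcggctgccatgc
Pigu: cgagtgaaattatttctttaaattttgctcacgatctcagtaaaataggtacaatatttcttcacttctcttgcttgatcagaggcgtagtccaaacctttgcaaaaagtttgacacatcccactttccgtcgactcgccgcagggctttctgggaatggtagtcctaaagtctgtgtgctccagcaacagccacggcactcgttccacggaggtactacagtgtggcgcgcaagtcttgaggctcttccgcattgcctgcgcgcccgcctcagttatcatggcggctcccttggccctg
The Pigs window held 2 CCAAT boxes and 1 ETS core, the Pigt window 1 of each, and the Pigu window 0 of either. The CCAAT letters occur in 37.4% and the ETS letters in 8.86% of all 32851 RefSeq windows of this length. Of the 8 genes with a window, 5 held the CCAAT letters and 5 the ETS letters, and these sets include Pigf, which was higher in KO2 and KO3. A match describes the letters and is not a measured binding site.

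Pigu, the transamidase subunit most like the mannosyltransferases of the pathway, gave 406, 333, 489 and 325 in WT, KO1, KO2 and KO3 with probe set 1427928_s_at. WT lay inside the KO range, and the log2 difference was -0.11 (SE 0.38, limma adjusted p = 0.999). Probe set 1439350_s_at gave 261, 254 and 273 in WT, KO1 and KO2, and 55.7 in KO3, which is at background. Its log2 difference of -0.65 rested on that array and was 0.015 without KO3. Probe set 1427466_at was at background in KO1 and KO3.

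Set against the partners, the Gpaa1 probe set 1438152_at stood apart in each KO array. The 5 partner probe sets above background in all 4 arrays had a median log2 difference of -0.11, so Gpaa1 lay 2.20 above them. In KO1, KO2 and KO3 taken singly, this gap was 1.98, 2.23 and 2.36 (SD 0.19, n = 3). The gap is a description, since Gpaa1 was chosen for its difference. Probe set 1448225_at, with its difference of -0.0048, lay inside the range of the partners.

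**Figure D3:**
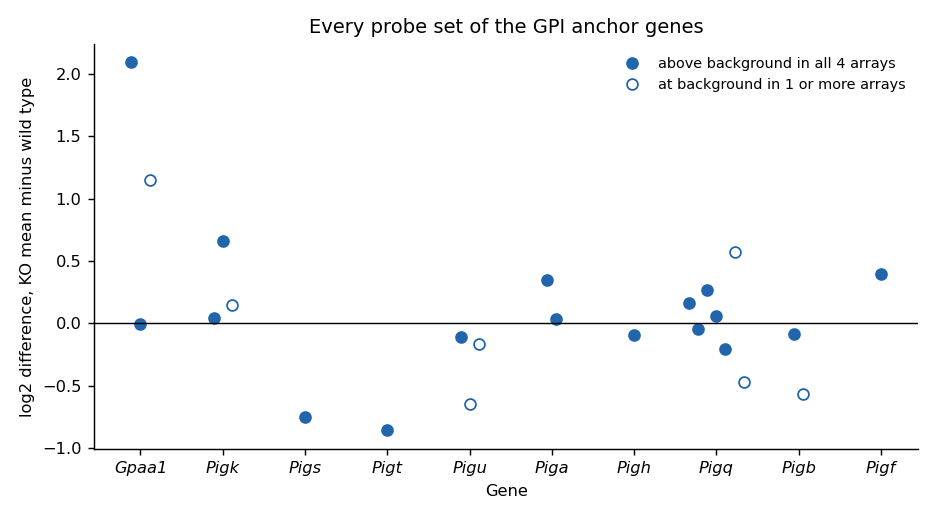
Log2 difference of the KO mean from wild type for all 24 probe sets, by gene, with filled circles for those above background in all 4 arrays and open circles for those at background in at least 1. A single filled circle, of Gpaa1, lies above 2, while the other filled circles lie between -0.86 and 0.66.

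Piga, Pigh and Pigq act at the first step, as the catalytic subunit and 2 further subunits of the enzyme that adds N-acetylglucosamine to phosphatidylinositol. Piga, an X-linked gene, gave 213 in WT and 239.6, 299 and 291 in KO1, KO2 and KO3 with probe set 1427305_at. WT was the lowest of the 4, and the log2 difference was 0.35 (SE 0.33, limma adjusted p = 0.999). Probe set 1453497_a_at of the same gene gave 86.1, 79.5, 92.2 and 94.2 in the same order, with WT inside the KO range and a difference of 0.033.

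Pigh gave 164 in WT and 129, 148 and 186 in KO1, KO2 and KO3. The groups overlapped, and the log2 difference was -0.094 (SE 0.35, limma adjusted p = 0.999). Pigq had 7 probe sets, 5 of them above background in all 4 arrays. Of these, the brightest, 1438652_x_at, gave 1198 in WT and 1358, 1066 and 1682 in KO1, KO2 and KO3. The x in its name, and in those of 1435416_x_at and 1437999_x_at, carries the limit given above for Gpaa1 1455954_x_at. The 5 probe sets differed from wild type by -0.21 to 0.27, a gap of 0.48. WT was below all KO arrays with 1437999_x_at, above them with 1426055_a_at and within their range with the other 3.

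Pigb, the mannosyltransferase that adds the third mannose, gave 106 in WT and 108, 101 and 89.4 in KO1, KO2 and KO3 with probe set 1435958_at. WT lay inside the KO range, and the log2 difference was -0.084 (SE 0.33, limma adjusted p = 0.999). Its other probe set, 1421257_at, was at background in KO2 and KO3. Pigf, a membrane partner that the ethanolamine phosphate transferases Pigo and Pigg need, gave 485 in WT and 402, 761 and 860.2 in KO1, KO2 and KO3. Here KO2 and KO3 were both above the other arrays, by 0.85 log2 units between the pair means, while KO1 was the lowest. KO minus wild type came to 0.40 (SE 0.48, limma adjusted p = 0.999). It was 0.72 without KO1 and 0.19 without KO3, and KO1 alone differed by -0.26.

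The pair split was seen in both directions among the 17 kept probe sets of the 10 genes, as it was over all probe sets kept. KO2 and KO3 were both below the other arrays for 3 of them (28% of all probe sets kept) and both above for 5 (25.3% of all), while the pairs overlapped for 9. Those below were Pigs, Pigt and Pigb, and those above were Gpaa1 with 1438152_at, Pigk, both Piga probe sets and Pigf. For Gpaa1, KO1 minus WT was 1.81, a value that the choice of the gene had fixed to be at least 1.

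**Figure D4:**
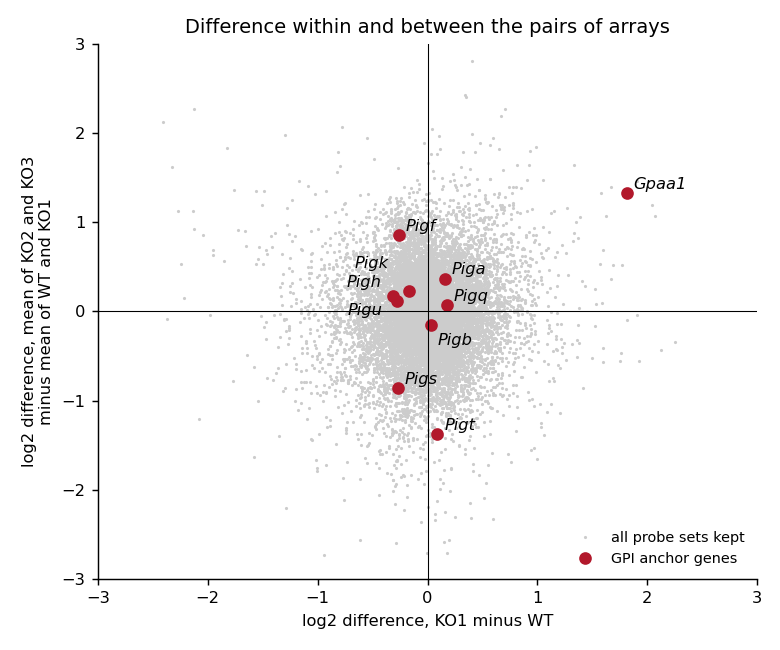
Log2 difference of KO1 from wild type (horizontal) against that of the mean of KO2 and KO3 from the mean of wild type and KO1 (vertical), for all 13575 kept probe sets (grey) and for each GPI gene by its brightest probe set (red). Gpaa1 lies at 1.81 and 1.33, and the other genes lie near 0 on the horizontal axis but spread from -1.38 for Pigt to 0.85 for Pigf on the vertical one. The axes end at 3 on either side and leave out 9 grey points.

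Among the kept probe sets of the genes beside Gpaa1 on chromosome 15, no log2 difference exceeded 0.47. Exosc4, which encodes an exosome subunit and lies next to it, gave 454, 368, 524.5 and 417 in WT, KO1, KO2 and KO3 with its brightest probe set, a log2 change of -0.071 (SE 0.35, limma adjusted p = 0.999). Cyc1, the gene of cytochrome c1, gave 6016, 5138, 6123 and 7923, a difference of 0.065 (SE 0.37, limma adjusted p = 0.999). The 2 probe sets of Sharpin, which encodes a part of the linear ubiquitin ligase, differed by 0.45 and 0.18. Smpd5 was at background in all 4 arrays and Oplah in KO2 and KO3, and the pseudogene Rps6-ps1 had no probe set.

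The patterns most like that of Gpaa1 probe set 1438152_at were sought among all kept probe sets by the Euclidean distance between log2 values of the 4 arrays, each centred on its own mean. The nearest 5 were Airn, an imprinted noncoding RNA, at a distance of 0.37, the mitochondrial carrier gene Slc25a29 at 0.40, Rgcc, a regulator of the cell cycle, at 0.46, Ttf1 at 0.48 and Ahcyl2 at 0.53. Airn, Slc25a29 and Ttf1 were at background in WT. Rgcc, above background throughout, gave 351 in WT and 917, 1353 and 981 in KO1, KO2 and KO3. The other kept Gpaa1 probe set lay at a distance of 1.96, and the other GPI genes lay between 1.53 for Piga and 2.97 for Pigt. With 4 arrays the distance describes these samples only.

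Of 27 other genes that build or remodel the anchor, 15 were matched to the array and 14 were kept. None was called (0% of all 7436 genes kept, 1 probe set each). In 2 of the 14 WT was below every KO array (23.2% of all genes kept), and in 4 it was above every KO array (20.6% of all). The median log2 difference was -0.032, beside -0.00014 over all genes kept. Taken by single kept probe sets, which need not be the brightest ones counted above, the largest moderated t values were those of Pgap2, Pigc, Tmed9 and Pign. Pgap2, a lipid remodelling factor of the Golgi, gave 175 in WT and 137, 95.3 and 89.4 in KO1, KO2 and KO3 with probe set 1424615_at. WT was also above all KO arrays with its other 2 probe sets, whose differences were -0.18 and -0.33, beside -0.66 with 1424615_at. Pign, which adds an ethanolamine phosphate to the first mannose, gave 204 against 158, 161 and 119.9, a difference of -0.45. Pigc, a subunit of the first enzyme, differed by -0.55 with 1 probe set, which was at background in KO3, and by 0.15 with the brighter one. Tmed9, a cargo carrier of the secretory pathway, gave 2413, 2443, 1261 and 1178, so it followed the pairs of arrays. With another probe set it gave 629, 594, 594 and 1019, without that split.

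Of 62 GPI-anchored proteins listed, 45 were matched and 22 were kept, and none was called. WT was below every KO array for 4 of the 22 and above every KO array for 7, beside the 23.2% and 20.6% given above. The median log2 difference was -0.11. KO2 and KO3 were both below the other arrays for 10 of the 22 (25.8% of all genes kept) and both above for 1 (24.8% of all). The 22 kept genes differed by -0.92 to 0.46. Taken by single kept probe sets, the largest moderated t values were those of Cd24a, Reck, Plaur and Gpc6, and these lie outside the counts above. Reck and Plaur passed the filter only among single probe sets, and for Cd24a and Gpc6 a brighter probe set was counted. Cd24a, the heat-stable antigen of neural and blood progenitors, gave 829.6 in WT and 1265, 1897 and 2284 in KO1, KO2 and KO3 with probe set 1437502_x_at. That difference of 1.07 (SE 0.42, limma adjusted p = 0.999) stood beside 0.46 and 0.12 with brighter probe sets of the gene. The limit given above for an x in the name holds for 1437502_x_at too. Reck, an inhibitor of matrix metalloproteinases, gave 51.2 against 73.6, 133 and 133, a difference of 0.92. Plaur, the urokinase receptor, differed by 0.70, with KO3 at background. The glypican gene Gpc6 differed by 0.77 with 1419689_at and by -0.21 with its brighter probe set.

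Thy1 and Prnp, widely studied anchored proteins of neural cells, were named after their values were seen. Thy1 gave 1017 and 916 in WT and KO1 and 527 and 582 in KO2 and KO3. The prion protein gene Prnp gave 5341 and 5298 against 4510.05 and 4847 with its brightest probe set. Both were thus lowest in the pair of KO2 and KO3, and their differences of KO from wild type were -0.62 and -0.13. With Prnp probe set 1416130_at the signals were 3431 and 3093 against 1866 and 1840, a difference of -0.64. Of 5 genes put on a list for GPI release, 3 were kept as genes and none was called, while Notum passed the filter only among single probe sets. A place on this list does not show that the enzyme cleaves anchored proteins. Notum, Gdpd5, Gdpd2 and Gde1 differed by 0.40, -0.28, 0.075 and -0.018.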

How the data were processed

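Expression was measured in 4 samples, and members, lists and alternatives were chosen with earlier results of these data known. The deposited values are MAS5 signal intensities, per the submitters' processing notes, 1 per probe set and array. No source used here states their version, scaling target or detection calls. Trimmed by 2% at either end, array means lay between 500.2 and 500.3, so the authors had scaled each array, and no scaling was added.

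Of 22690 probe sets, 64 were Affymetrix controls, and 20380 of the others had 1 gene symbol in a table of the platform's annotation, updated through a RefSeq table of GRCm38.p6. The promoter windows are RefSeq's. Intensities became log2(signal + 14.4), a pseudocount of 0.1 times the median of all values. The 40% of probe sets with the lowest mean were left out, which kept 13575. For the comparison of genotypes, lmFit and eBayes of limma 3.58.1 ran in R 4.3.3 as a two-sided test, and p-values were adjusted by Benjamini and Hochberg's method over all kept probe sets, with a threshold of 0.05. Only the 3 KO arrays give a spread (2 residual and 4.75 prior degrees of freedom), which was taken to hold for wild type too. The fit was tested on simulated data. The number of arrays limits the precision.

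Lists were counted by gene, with the brightest probe set standing for the gene. The text names every member, the 5 nearest patterns and the 3 genes on either side of Gpaa1. From each list it names up to 4 genes by the moderated t of their kept probe sets, whether or not these are the brightest. Thy1 and Prnp were added outside this rule, after their values were seen. Olig1, Xist and Eif2s3y were named as facts of the whole series. Alternatives covered scaling, pseudocount, filter, 1 probe set per gene, eBayes settings, a block for the array pairs, the background limit and each KO array left out. The labels give no replicate number shared by the groups.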

Additional observations from a re-analysis of the deposited data

How the results depend on the processing

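With 1 wild-type array every difference rests on that array, and the signals of dim probe sets near the bacterial controls limit what can be compared. The log2 difference of Gpaa1 probe set 1438152_at, chosen for that difference, stayed between 1.81 and 2.23 over the alternatives that can move it. Its gap to the partners was 1.94 with a pseudocount of 64, 2.52 with the median over the probe sets of each gene, and 2.12 to 2.26 with a KO array left out. No probe set was called under any alternative except without KO1, which gave 5, none of a GPI anchor gene. The count was thus 0 to 5 over the 3 fits that left out a KO array. At an unadjusted p under 0.05 the count was 324 of 13575 probe sets, and 173 of 13575 with a block for the array pairs. It was 622 of 22626 with no filter and 168 of 7436 with 1 probe set per gene, so these counts have unlike totals.

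Of 180 recomputed differences of kept GPI probe sets, 163 kept their sign and 17 changed it, and none was called. The 163 overstate how stable the signs were. They include refits with no filter, with 1 probe set per gene and with other eBayes settings, which cannot change a difference. They also include the Gpaa1 probe set chosen for its difference, whose sign that choice had largely fixed. With a block for the array pairs, which leaves KO1 against wild type, the value was 0.32 for Gpaa1 1448225_at, -0.17 for Pigk, 0.090 for Pigt, -0.098 for Piga 1453497_a_at, 0.027 for Pigb and -0.26 for Pigf. With median scaling Gpaa1 1448225_at gave 0.016, and with quantile normalization it gave 0.051 and Piga 1453497_a_at -0.025. Leaving out a KO array moved Gpaa1 1448225_at between -0.17 and 0.20, Pigk between -0.026 and 0.15, Pigu 1439350_s_at between -1.003 and 0.015, Piga 1453497_a_at between -0.0062 and 0.098, Pigh between -0.22 and 0.017, Pigq 1435416_x_at between -0.22 and 0.081, and Pigq 1415946_at between -0.044 and 0.20. The cause was not tested. The block stands for the array pairs seen in the data, and no analysis paired by replicate number was possible because the labels give wild type none.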
